A study of Mus musculus with 20 samples.

Results

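Secreted Wnt antagonists were described in knee articular cartilage of mice that lack Dio2, the gene of the deiodinase that activates thyroid hormone, with and without forced treadmill-running. Members were all probes of the Illumina MouseWG-6 v2 BeadChip whose platform gene symbol is Frzb, Sfrp1, Sfrp2, Sfrp4, Sfrp5, Dkk1, Dkk2, Dkk3 or Wif1, which are 12 of the 45281 probes. Of these 12 probes, 9 were detected, meaning that on 3 or more of the 20 arrays their detection P-value was below 0.05. They stand for 7 of the 9 genes. By the same rule, 23148 of the 45281 probes were detected, and 12310 of the 19057 genes named on the array had such a probe. The arrays fall into 6 Dio2-/- Run, 3 Dio2-/- NoRun, 8 wild-type Run and 3 wild-type NoRun samples. All mice were males of 4 to 6 months on a C57Bl/6 background, and the Dio2-/- mice had been backcrossed onto it for 6 generations. Run mice ran for 3 weeks on 5 days per week, for 1 hour per day at 11 m/min and an incline of 5 degrees, and NoRun mice did not run. The Dio2-/- line is a whole-body knockout, so the groups do not separate an effect in cartilage from one elsewhere in the body. Each sample was a pool of knee cartilage of 2 mice, and the P-values of the group comparisons measure the spread between pools. The wild-type mice are given as purchased and also as littermates, so supplier and litter cannot be told apart from genotype here.

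Wnt ligands signal through Frizzled receptors and the co-receptors Lrp5 and Lrp6, which stabilises beta-catenin and lets it act with TCF and LEF factors in the nucleus. The secreted antagonists work outside the cell. The secreted Frizzled-related proteins, among them Frzb, and Wif1 bind Wnt ligands themselves, whereas Dkk1 and Dkk2 bind the co-receptors, and Dkk3 is a divergent member of the Dickkopf family. In joints, Frzb is known as an antagonist of articular chondrocytes whose loss worsens cartilage damage in mice, and Dkk1 is known for restraining bone formation.

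Among the ligand-binding antagonists, all but Sfrp4 had a detected probe. The Frzb probe was detected on 19 of 20 arrays, an Sfrp1 probe (ILMN_1231689), the Sfrp5 probe and the Wif1 probe on all 20, the other Sfrp1 probe (ILMN_2604282) on 13, and the Sfrp2 probe on 5. Of the Dickkopf family, the Dkk1 probe was detected on 17 arrays, and 2 of 3 Dkk3 probes (ILMN_2746556 and ILMN_2852957) on all 20. The remaining 3 probes were not tested. Sfrp4 was detected on 1 array (Dio2-/- NoRun replicate 19), the third Dkk3 probe (ILMN_1224173) on 1 array (Dio2-/- Run replicate 32), and Dkk2 on 0 of 20. All values below are log2 intensities after background correction and quantile normalization, and they compare one probe across arrays, never one probe with another.

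Sequences upstream of the transcription start are shown for Frzb and Dkk1, because these were the members whose 95% interval of the genotype difference left out 0. They are the 250 bases before the start from RefSeq (GRCm38.p6), 5′ to 3′ on the gene's own strand, which is the minus strand for both. Frzb lies at chr2:80447397-80447646 and Dkk1 at chr19:30549497-30549746. Capitals mark each match, on either strand, to a TCF/LEF core, CTTTGA or CTTTGT, whose reverse complements are TCAAAG and ACAAAG.
Frzb: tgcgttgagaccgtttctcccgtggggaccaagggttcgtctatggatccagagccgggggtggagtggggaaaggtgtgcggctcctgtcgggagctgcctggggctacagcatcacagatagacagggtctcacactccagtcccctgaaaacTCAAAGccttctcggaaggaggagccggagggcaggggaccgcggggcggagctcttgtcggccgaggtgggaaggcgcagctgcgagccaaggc
Dkk1: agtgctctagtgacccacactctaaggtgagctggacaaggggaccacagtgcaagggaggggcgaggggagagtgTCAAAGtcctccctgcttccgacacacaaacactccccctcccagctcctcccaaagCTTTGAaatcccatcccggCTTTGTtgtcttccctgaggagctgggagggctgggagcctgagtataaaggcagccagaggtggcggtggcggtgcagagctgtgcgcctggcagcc
The Frzb window held 1 core and the Dkk1 window 3, with no overlap between them. Of the 6 members with an entry in the promoter table, Dkk2 also held 1, and Sfrp2, Sfrp5 and Wif1 held 0. Over all 32851 promoters of the table, 27.6% held at least 1 of these cores in windows of the same length, 13.8% CTTTGA and 16.5% CTTTGT. The half-site of nuclear receptors such as the thyroid hormone receptor, AGGTCA, was in 0 of the 6 windows and in 14% of all promoters. A match describes letters only.

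The 20 arrays had median intensities of 162.3 to 223 and 18469 to 21386 detected probes each. Of 17 cartilage marker genes, 13 had a detected probe, among them Col2a1, Acan and Sox9, while Col9a3, Matn3 and Cnmd had none. Marker genes of other joint tissues were detected too, with 8 of 9 for osteoblasts and osteocytes, 11 of 12 for skeletal muscle and 11 of 12 for neutrophils. Samples Dio2-/- NoRun replicate 16 and Dio2-/- Run replicate 24 stood apart, with the lowest neutrophil means (13.08 and 14.12) and the highest muscle means (15.09 and 15.09). They also had the highest means of cartilage markers (10.30 and 10.29) and of endothelium markers (9.97 and 10.06). The results that rest most on these samples are also given without them. In such bulk tissue, fewer cells of a type and less RNA per cell cannot be told apart. The arrays lay on 6 chips. All 3 Dio2-/- NoRun samples were alone on chip 5 and the 3 wild-type NoRun samples shared chip 4 with 1 Dio2-/- Run sample, so genotype in NoRun and running in Dio2-/- mice cannot be told apart from chip. No chip held both Run and NoRun samples of wild-type mice. Running in wild-type mice can be set apart from chip only through Dio2-/- Run samples on the same chips.

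The first comparison asked whether the antagonists differed between Dio2-/- and wild-type cartilage, with running in the model. None of the 9 detected probes passed the adjusted threshold of 0.05 in limma's fit over 23148 probes, where 0.00432% of all probes passed. At an unadjusted P below 0.05 there were 2 of 9, Frzb and Dkk1, against 14.3% of all tested probes. The difference was positive for 7 probes and negative for 2, with a median of 0.17 on the log2 scale beside 0.00 over all tested probes.

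Frzb, the antagonist best known from articular cartilage, was measured at 6.70, 6.88 and 7.06 in Dio2-/- NoRun samples, against 6.23, 6.32 and 7.02 in wild-type NoRun samples. Its lowest, median and highest values were 6.13, 6.56 and 7.32 in Dio2-/- Run samples and 5.17, 6.20 and 6.78 in wild-type Run samples. The genotypes overlapped: 3 of 11 wild-type samples lay below all 9 Dio2-/- samples, and 2 of 9 Dio2-/- samples lay above all wild-type samples. The group means, from the highest, were 6.88 ± 0.18 in Dio2-/- NoRun (SD, n = 3), 6.64 ± 0.42 in Dio2-/- Run (n = 6), 6.52 ± 0.43 in wild-type NoRun (n = 3) and 6.12 ± 0.53 in wild-type Run samples (n = 8), and neighbours in this order differed by less than the larger of their SDs. The genotype difference for Frzb was 0.47 on the log2 scale (SE 0.19, 95% interval 0.09 to 0.86, adjusted P = 0.278 in limma), which is 1.39-fold more in Dio2-/- samples. It was 0.53 (adjusted P = 0.329) without both samples that stood apart. Within chip 6, the mean of 2 Dio2-/- Run samples was 6.26 and the 1 wild-type Run sample had 5.17, which is the lowest Frzb value of all arrays and the one not detected. Within chip 4, the 1 Dio2-/- Run sample had 6.68 and the 3 wild-type NoRun samples averaged 6.52. The size depended on the processing, with 0.18 without background correction and 0.10 in the authors' normalized table, for which no background step was given. Beside Frzb, all 11 tested muscle genes also had positive genotype differences, with a median of 0.48. Of these, 6 had an unadjusted P below 0.05 in limma, against 14.3% of all tested probes, and 0 passed the adjusted threshold. The muscle list means were 14.5 ± 0.41 in Dio2-/- samples (n = 9) and 14.1 ± 0.38 in wild-type samples (n = 11), with ranges of 13.9 to 15.1 in Dio2-/- and 13.7 to 14.8 in wild-type samples. Without both samples that stood apart, the Dio2-/- mean of the muscle list was 14.35 (n = 7, highest 14.69), so the gap between the genotypes was 0.26 in place of 0.42. Differences were also positive for 10 of 13 cartilage genes (median 0.09), 2 of 3 tendon (0.45), 4 of 4 erythroid (0.09) and 4 of 6 endothelial genes (0.06). They were negative for 7 of 10 fibroblast, 7 of 8 bone cell, 11 of 11 neutrophil and 3 of 5 adipocyte genes. The part of muscle and of these other tissues in the Frzb difference was not tested.

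Dkk1, the inhibitor that binds Lrp5 and Lrp6, ran the other way. It was measured at 4.87, 6.07 and 6.23 in Dio2-/- NoRun samples, against 5.90, 6.49 and 6.69 in wild-type NoRun samples. Its lowest, median and highest values were 5.03, 6.34 and 6.84 in Dio2-/- Run samples and 6.30, 6.78 and 7.17 in wild-type Run samples. The lower end was made of Dio2-/- samples, since 3 of 9 lay below all 11 wild-type samples, and 4 of 11 wild-type samples lay above all Dio2-/- samples. The same 3 samples, Dio2-/- NoRun replicate 16 and Dio2-/- Run replicates 24 and 35, were the ones in which Dkk1 was not detected, while it was detected in 11 of 11 wild-type samples. From the highest, the means were 6.72 ± 0.34 in wild-type Run (SD, n = 8), 6.36 ± 0.41 in wild-type NoRun (n = 3), 6.12 ± 0.70 in Dio2-/- Run (n = 6) and 5.73 ± 0.74 in Dio2-/- NoRun samples (n = 3), and neighbours again differed by less than the larger of their SDs.

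The genotype difference for Dkk1 was -0.61 on the log2 scale (SE 0.22, 95% interval -1.07 to -0.16, adjusted P = 0.257 in limma), which is 1.53-fold less in Dio2-/- samples. Without both samples that stood apart it was -0.34 (SE 0.17, adjusted P = 0.468), and its unadjusted P was no longer below 0.05. Dkk1 was lower in the Dio2-/- samples of both chips that hold both genotypes, with 5.54 in 1 Dio2-/- Run sample and a mean of 6.36 in 3 wild-type NoRun samples on chip 4, and a mean of 5.76 in 2 Dio2-/- Run samples against 6.97 in 1 wild-type Run sample on chip 6. The chip 6 difference was -1.21, and without replicate 24, which had 5.03, it was -0.49 between 1 sample of each genotype. Without background correction the difference was -0.23, and in the authors' normalized table it was -0.13.

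Markers of bone cells, which are known to make Dkk1, were lowest in the 2 samples that stood apart. Of the 8 tested osteoblast and osteocyte genes, 7 had a negative genotype difference and 0 passed the adjusted threshold, with a median of -0.21. The mean of this list was 11.2 ± 0.42 in Dio2-/- samples (range 10.5 to 11.7, n = 9) and 11.5 ± 0.24 in wild-type samples (range 11.0 to 11.8, n = 11). It was 10.5 in Dio2-/- NoRun replicate 16 and 10.6 in Dio2-/- Run replicate 24, and without these the Dio2-/- mean was 11.4 ± 0.23 (n = 7). Neutrophil markers were also lowest there. All 11 tested had a negative genotype difference, with a median of -0.42. Of these 11 markers, 3 had an unadjusted P below 0.05 in limma, against 14.3% of all tested probes, and 0 passed the adjusted threshold. Their list mean was 14.8 ± 0.71 in Dio2-/- samples (range 13.1 to 15.2) and 15.2 ± 0.05 in wild-type samples (range 15.1 to 15.2), and the gap of -0.41 was -0.080 without both samples. Dio2-/- Run replicate 35, where Dkk1 was not detected either, had list means of 11.20 for bone cells and 15.17 for neutrophils. Wild-type Run replicate 30 had the lowest bone mean of wild-type samples (10.99), with Dkk1 detected at 6.30. The part of bone tissue and of neutrophils in the Dkk1 difference was not tested.

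**Figure D1:**
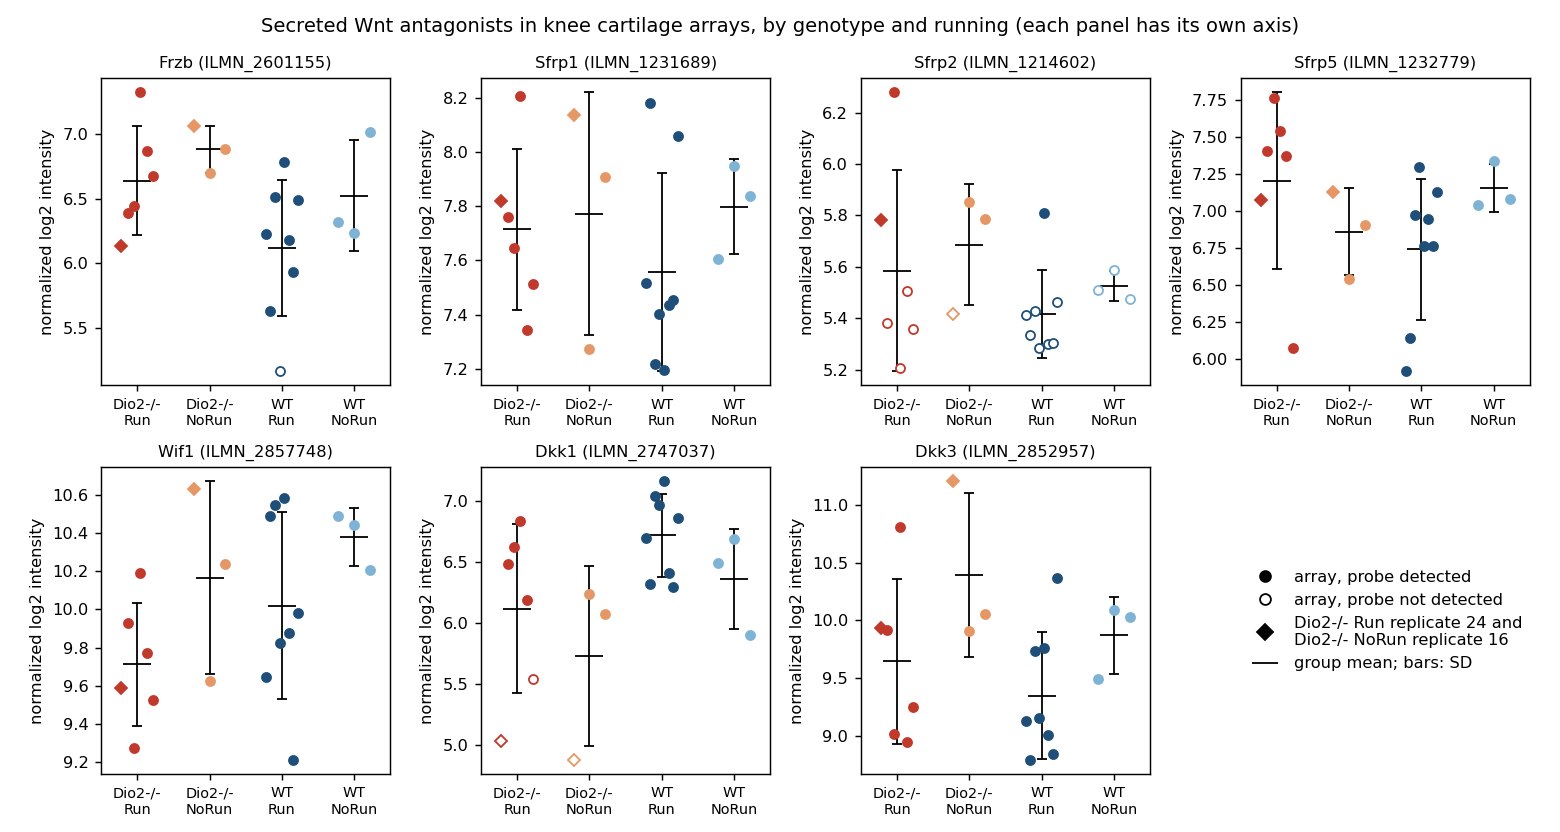
Normalized log2 intensity (vertical axis) of the brightest detected probe of each of 7 secreted Wnt antagonists in every array, by group; open symbols are arrays without detection, diamonds the 2 arrays that stood apart, and bars the group mean and SD. Dkk1 was undetected in 3 Dio2-/- arrays, at 4.87, 5.03 and 5.54, and Frzb in 1 wild-type Run array, at 5.17.

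For each of the other ligand-binding antagonists, as for Frzb, the genotype difference was smaller than the larger of the SDs within the genotypes. Sfrp5, a secreted Frizzled-related protein also known from fat tissue, averaged 7.20 ± 0.60 in Dio2-/- Run, 6.86 ± 0.30 in Dio2-/- NoRun, 6.74 ± 0.48 in wild-type Run and 7.15 ± 0.16 in wild-type NoRun samples (SD), with a genotype difference of 0.23 (SE 0.21, adjusted P = 0.619). This difference was -0.060 with chip as a fixed block, a fit that rests on chip 6 alone for genotype. Without Dio2-/- Run replicate 24, the chip 6 difference of Sfrp5 was 0.11 between 1 sample of each genotype. For Sfrp1, which binds Wnt ligands and Frizzled receptors, the brighter probe averaged 7.71 ± 0.30, 7.77 ± 0.45, 7.56 ± 0.37 and 7.80 ± 0.17 in the same order of groups, and the difference was 0.10 (SE 0.14, adjusted P = 0.773). The dimmer Sfrp1 probe averaged 5.84 ± 0.24, 5.79 ± 0.34, 5.63 ± 0.28 and 5.88 ± 0.07 in that order, with a difference of 0.12 (SE 0.12, adjusted P = 0.663), and the Pearson correlation between both Sfrp1 probes over the 20 arrays was 0.45.

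Wif1, which binds Wnt ligands through its own WIF domain, averaged 9.71 ± 0.32 in Dio2-/- Run, 10.17 ± 0.51 in Dio2-/- NoRun, 10.02 ± 0.49 in wild-type Run and 10.38 ± 0.15 in wild-type NoRun samples (SD). It was the other member with a negative genotype difference, of -0.28 (SE 0.17, 95% interval -0.64 to 0.08, adjusted P = 0.451), and this was -0.066 with chip as a fixed block. Without Dio2-/- Run replicate 24, the chip 6 difference of Wif1 was 0.10 between 1 sample of each genotype. Sfrp2, a Frizzled-related protein of fibroblasts, lay near background and was detected on 2 of 6 Dio2-/- Run, 2 of 3 Dio2-/- NoRun, 1 of 8 wild-type Run and 0 of 3 wild-type NoRun arrays. It averaged 5.59 ± 0.39, 5.69 ± 0.24, 5.42 ± 0.17 and 5.53 ± 0.06 in that order, with a genotype difference of 0.17 (SE 0.11, adjusted P = 0.502). Sfrp2 was not detected on any wild-type NoRun array, or on Dio2-/- NoRun replicate 16, which had 5.42. For a comparison, each wild-type NoRun array was set to the lowest signal of any probe detected on it where that was higher. The Dio2-/- NoRun mean was then 1.07-fold that of wild-type NoRun samples. This is no lower bound, because the 95% interval of the NoRun difference was -0.28 to 0.60 (adjusted P = 0.81 in limma). The untested probes stayed low in every group, with means of 5.12 to 5.39 for Sfrp4, 4.74 to 4.92 for Dkk2 and 5.09 to 5.45 for the third Dkk3 probe.

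Dkk3, which is not known to bind Lrp6 as Dkk1 does, had a genotype difference of 0.40 with ILMN_2746556 (SE 0.22, 95% interval -0.06 to 0.86, adjusted P = 0.407) and 0.37 with ILMN_2852957 (SE 0.25, 95% interval -0.15 to 0.88, adjusted P = 0.49). Without both samples that stood apart these were 0.26 and 0.20. Within chip 4 both Dkk3 probes were lower in the Dio2-/- Run sample than in the mean of the wild-type NoRun samples, by -0.83 and -0.62, and within chip 6 they were higher in Dio2-/- Run, by 0.42 and 0.77.

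Genotypes were also compared within each running group. In Run samples, 0 of 9 probes passed the adjusted threshold, as did 0% of all probes, and 2 of 9 had an unadjusted P below 0.05, against 8.17% of all tested probes. These were again Frzb, with a difference of 0.52 (SE 0.23, adjusted P = 0.578), and Dkk1, with -0.60 (SE 0.27, adjusted P = 0.588). Leaving out Dio2-/- Run replicate 33, the sample with the highest Frzb value, gave 0.39 for Frzb, and leaving out replicate 24 gave -0.39 for Dkk1, and neither then had an unadjusted P below 0.05. In NoRun samples, 0 of 9 passed the adjusted threshold, against 0.0432% of all probes, and 0 of 9 the unadjusted one, against 10.4%. The NoRun differences ranged from -0.63 for Dkk1 to 0.69 for Dkk3 (ILMN_2746556), and both ends rested on Dio2-/- NoRun replicate 16. Without it, the difference of means was -0.21 for Dkk1 and 0.31 for Dkk3, and the 9 probes ranged from -0.45 for Wif1 to 0.31. The genotype effect in Run minus that in NoRun, the interaction, ranged from -0.42 to 0.76, and 0 of 9 probes passed the adjusted threshold (0% of all probes) or an unadjusted P below 0.05 (5.13% of all tested probes). The interval of that interaction was -0.69 to 1.03 for Frzb and -0.99 to 1.05 for Dkk1, so differences of these sizes between running groups were not detectable here.

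The running comparison asked whether mechanical challenge moved the antagonists. In wild-type mice, 0 of 9 probes passed the adjusted threshold, against 0.194% of all probes, and 0 of 9 an unadjusted P below 0.05, against 13.2%. The difference between Run and NoRun was negative for 8 of 9 probes, with a range of -0.60 to 0.36 and a median of -0.36, beside 0.01 over all tested probes, and Dkk1 was the positive one. In the same wild-type samples, 11 of 13 cartilage markers, 9 of 10 fibroblast markers and 11 of 11 muscle markers also had negative differences, with medians of -0.37, -0.31 and -0.23, and their part was not tested. The wild-type Run and NoRun samples lay on different chips, so these differences are not free of chip. In Dio2-/- mice, 0 of 9 probes passed the adjusted threshold, against 0.134% of all probes, and 1 of 9 had an unadjusted P below 0.05, against 19.2%, so that a share this size was no more than that of all probes. Here 6 of 9 differences were negative, with a median of -0.10 beside 0.02 over all tested probes.

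That 1 probe was Dkk3 (ILMN_2746556). Its lowest, median and highest values were 8.42, 8.88 and 9.84 in Dio2-/- Run samples, against 9.496, 9.63 and 10.73 in Dio2-/- NoRun samples. In wild-type mice, they were 7.89, 8.62 and 9.43 in Run samples, and the NoRun samples had 9.03, 9.17 and 9.56. In Dio2-/- mice, 5 of 6 Run samples lay below all 3 NoRun samples, and in wild-type mice 6 of 8 Run samples did, so the ranges overlapped in both genotypes. From the highest, the means were 9.95 ± 0.68 in Dio2-/- NoRun (SD, n = 3), 9.25 ± 0.27 in wild-type NoRun (n = 3), 8.92 ± 0.54 in Dio2-/- Run (n = 6) and 8.65 ± 0.55 in wild-type Run samples (n = 8). The running difference in Dio2-/- mice was -1.03 on the log2 scale (SE 0.35, 95% interval -1.76 to -0.30, adjusted P = 0.133), which is 2.04-fold less in Run samples. The running difference in wild-type mice was -0.60 (SE 0.34, adjusted P = 0.464), and the interaction was -0.42 (SE 0.48, adjusted P = 0.96). The other Dkk3 probe had a running difference of -0.75 in Dio2-/- mice (SE 0.39, adjusted P = 0.303) and -0.52 in wild-type mice (SE 0.38, adjusted P = 0.581).

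For Dkk3 the size in Dio2-/- mice rested on 1 sample. Dio2-/- NoRun replicate 16 had the highest value of both probes (10.7 and 11.2), and without it the running difference was -0.64 (SE 0.37, adjusted P = 0.573). Without both samples that stood apart it was -0.67 (SE 0.39, adjusted P = 0.40), and in the authors' normalized table -0.66. Among fibroblast markers, 8 of 10 were lower in Dio2-/- Run samples, with a median of -0.49. The list means were 9.99 ± 0.46 in Dio2-/- Run (range 9.56 to 10.7) and 10.4 ± 0.41 in Dio2-/- NoRun samples (range 9.97 to 10.8). Without replicate 16 the fibroblast mean of Dio2-/- NoRun samples was 10.17 (n = 2), and the difference of list means was -0.18 in place of -0.39. All 5 tested adipocyte markers were also lower, with a median of -1.05. An unadjusted P below 0.05 in limma was found for 5 of 5 adipocyte and 4 of 10 fibroblast markers, against 19.2% of all tested probes. In both lists 0 passed the adjusted threshold. The adipocyte list means were 8.53 ± 0.35 in Dio2-/- Run (range 8.10 to 9.02) and 9.53 ± 0.31 in Dio2-/- NoRun samples (range 9.18 to 9.76), and without replicate 16 they differed by -0.94. Lower in Dio2-/- Run samples too were 9 of 13 cartilage markers (median -0.19), 3 of 3 tendon (-0.24), 8 of 11 muscle (-0.05) and 4 of 4 erythroid markers (-0.09). So were 5 of 8 bone cell (-0.06) and 4 of 6 endothelium markers (-0.13), whereas all 11 neutrophil markers were higher (0.39). The part of these tissues was not tested, and the chip cannot be told apart from running here.

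**Figure D2:**
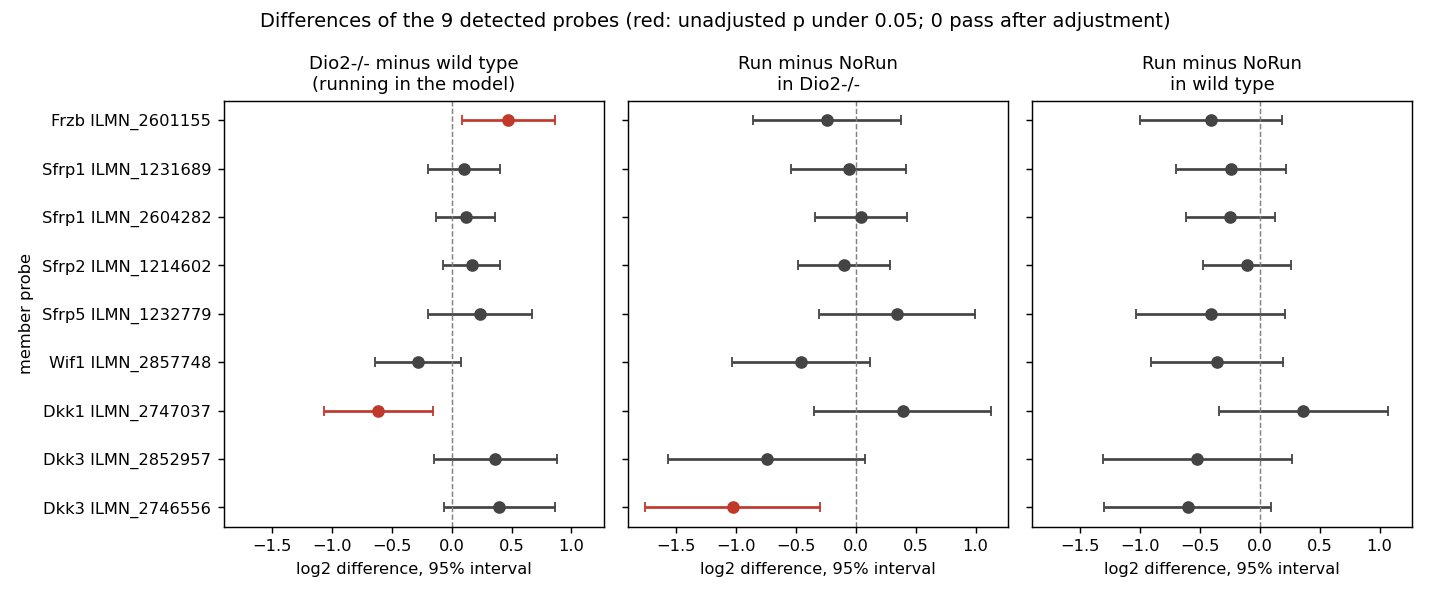
Log2 differences with 95% intervals (horizontal axis) of the 9 detected member probes for genotype, for running in Dio2-/- mice and for running in wild-type mice. In red are Frzb (0.47) and Dkk1 (-0.61) by genotype and Dkk3 (-1.03) by running in Dio2-/- mice, the 3 values with an unadjusted P below 0.05, none of which passed the adjusted threshold.

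Members were compared with each other over the 20 samples in 21 pairs, using the brightest probe of each gene and two-sided permutation tests of 100000 resamples. Values were exchanged over all 20 samples, across groups and chips, so shifts shared by a group or chip count in these P-values. After Benjamini-Hochberg adjustment over the 21 pairs, 0 passed. The closest pair was Frzb with Dkk3 (ILMN_2852957), at a Pearson correlation of 0.62 (P = 0.0034, adjusted P = 0.071) and a Spearman correlation of 0.58 (adjusted P = 0.182). For Frzb and Dkk3, Pearson's r was 0.56 without the 2 samples farthest from the median of Frzb, 0.61 without the samples that stood apart, 0.50 on values centred in each group and 0.68 on values centred in each chip. It was 0.50 over the 9 Dio2-/- samples and 0.67 over the 11 wild-type samples. The next pairs were Sfrp1 with Dkk3, at r = 0.53 (adjusted P = 0.166), and Dkk3 with Wif1, at r = 0.49 (adjusted P = 0.211). The 2 detected Dkk3 probes followed each other with r = 0.95.

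**Figure D3:**
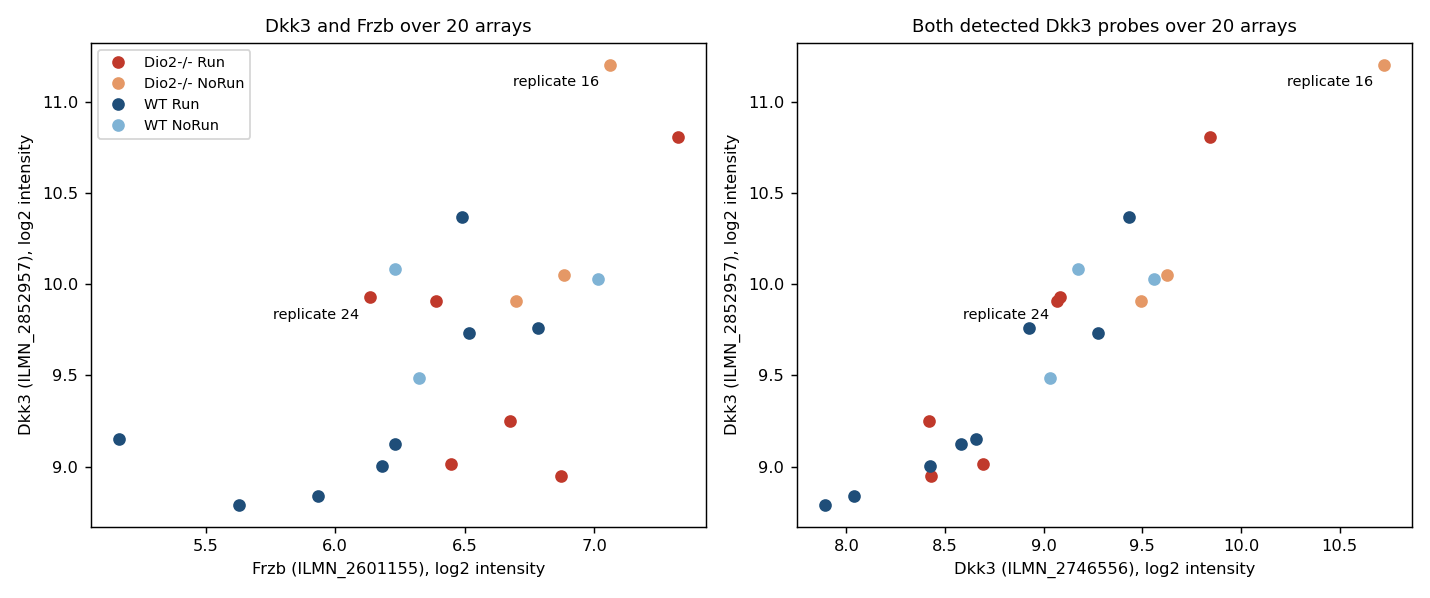
Left, log2 intensity of Dkk3 (vertical) against Frzb (horizontal) in each of the 20 arrays; right, both detected Dkk3 probes against each other, with arrays coloured by group. Frzb and Dkk3 had a correlation of 0.62 that did not pass adjustment, and the Dkk3 probes had one of 0.95, with Dio2-/- NoRun replicate 16 at the top of both.

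The probes whose pattern over the 20 arrays was most like each member's are given as a description, and arrays of a group or chip share their source. Dkk3 was closest to Col8a2, a short-chain collagen (r = 0.92), Scara3, a scavenger receptor (0.91) and Slc1a4, a neutral amino acid transporter (0.91), which were 0.89, 0.91 and 0.87 without the samples that stood apart. Wif1 was closest to B3gnt9 (0.92), Sec16b (0.84) and Col5a2, a fibrillar collagen (0.84), with 0.93, 0.82 and 0.83 without those samples. Dkk1 was closest to Rpl23, a ribosomal protein gene (0.91), Lrch1 (0.88) and Uck1, a uridine-cytidine kinase (0.87), and without those samples these were 0.85, 0.80 and 0.67. Weaker values were found for Frzb, with Armh4 (0.78), Abca8b (0.75) and Rgs11 (0.73), and for Sfrp1, with Pcdhgb4 (0.78), Pcolce, a procollagen processing enhancer (0.76) and Slc41a2 (0.76). Sfrp5 was closest to Dok5, Il17d and Tns2 (each 0.76), and Sfrp2, at background on most arrays, to Pnkd (0.75), Tcf25 (0.72) and Ddn (0.70). Spearman correlations for these probes lay between 0.35 and 0.90.

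The rest of the Wnt pathway was counted over 88 further genes, of which 61 had a detected probe. After adjustment, 0 of 61 passed in any of the 6 contrasts. At an unadjusted P below 0.05 there were 9 of 61 for genotype (14.8%, against 14.3% of all tested probes). Genotype in NoRun had 6 (9.8% against 10.4%) and genotype in Run had 7 (11.5% against 8.17%). Running had 8 in wild-type mice (13.1% against 13.2%) and 6 in Dio2-/- mice (9.8% against 19.2%). The interaction had 3 (4.9% against 5.13%). Genotype differences were positive for 29 and negative for 32, with a median of -0.02.

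Among 8 tested other secreted antagonists and modulators, 5 genotype differences were negative, with a median of -0.13. Sost, the sclerostin gene of osteocytes whose product also binds Lrp5 and Lrp6, averaged 5.61 in Dio2-/- and 6.13 in wild-type samples, a difference of -0.51 (SE 0.21, adjusted P = 0.302). Of 8 Wnt ligands tested, 5 were negative, with a median of -0.10, and Wnt7b was at 0.28 (SE 0.12, adjusted P = 0.32). Of 5 tested R-spondins and genes of ligand release, 3 were negative, among them Wls, the carrier that brings Wnt ligands to the cell surface, at -0.16 (SE 0.07, adjusted P = 0.328). Among 17 tested receptors and co-receptors, 11 were positive, with a median of 0.09, and the Frizzled receptor Fzd9 averaged 7.47 in Dio2-/- and 6.84 in wild-type samples, a difference of 0.61 (SE 0.17, adjusted P = 0.193). The intracellular core of 13 tested genes was divided, 7 positive and 6 negative, with a median of 0.00. Dvl1, which relays the signal from Frizzled, was at 0.32 (SE 0.11), the beta-catenin ubiquitin ligase subunit Btrc at 0.25 (SE 0.09), the nuclear co-factor Pygo1 at 0.39 (SE 0.15) and the kinase Gsk3b at -0.22 (SE 0.10), with adjusted P-values of 0.256 to 0.339. Of 10 tested targets and feedback genes, 7 were negative, with a median of -0.08, and the hyaluronan receptor Cd44 was at -0.32 (SE 0.14, adjusted P = 0.315).

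**Figure D4:**
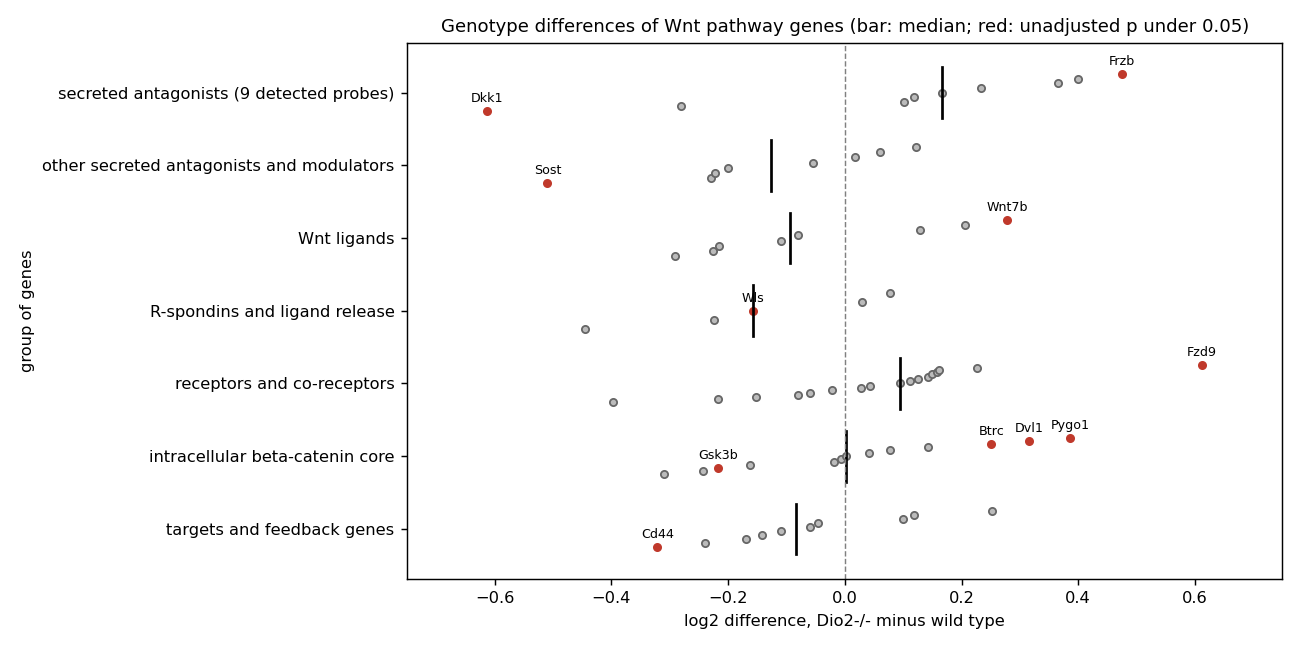
Log2 difference of Dio2-/- minus wild type (horizontal axis) for the 9 detected member probes and for 61 further Wnt pathway genes in 6 groups, with the median as a bar and an unadjusted P below 0.05 in red. The members lie between -0.61 (Dkk1) and 0.47 (Frzb), and 9 of the 61 other genes are red, the highest being Fzd9 at 0.61 and the lowest Sost at -0.51.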

How the data were processed

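Knee cartilage RNA, pooled from 2 mice per sample, was measured on Illumina MouseWG-6 v2 arrays. The authors deposited linear intensities per probe without normalization, together with a detection p-value that sets each intensity against the array's negative controls. Their second deposited table holds log2 values normalized between arrays, used here as an alternative only. The labels name GenomeStudio. No version, background step or genome build was given in the sources used here. Replicate arrays that the authors discarded were not analysed here.

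The neqc function of limma 3.58.1 (R 4.3.3, offset 16) corrected the intensities for background and quantile-normalized them to log2 values. Of 45281 probes, 23148 were tested, namely those detected at P below 0.05 on 3 or more arrays. The genotype effect was fitted on genotype and running over all 20 arrays, and the other contrasts on the 4 groups with 1 shared spread. P-values were adjusted by Benjamini-Hochberg over all tested probes. Of the probes, 34885 had 1 gene symbol, 18 several and 10378 none, and identifiers placed 34807 in the RefSeq table (GRCm38.p6). The fit was tested on simulated data.

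Every member probe was accounted for. Further Wnt genes were named if their unadjusted P for genotype was below 0.05, at most 3 per direction and list, and for likeness the 3 symbols with the highest Pearson correlation were named. Pathway and marker genes entered with their brightest tested probe. Members and lists were chosen with earlier results of these data known. Precision is limited by the number of arrays, and differences of probes near background come out too small. Alternatives were other background, normalization and detection settings, a trend and robust fit, array weights, chip as a fixed or random block, running left out, and leaving out each array or both that stood apart. Marker list means, NoRun differences and chip 6 differences without those arrays were added after seeing the data, as differences of means with no test.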

Additional observations from a re-analysis of the deposited data

Results flagged for a closer look

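Among the 18 sets of values tested for a sample far from the others (9 detected probes in each of the Dio2-/- Run and wild-type Run groups), 1 stood out. Sfrp2 (ILMN_1214602) was at 5.81 in wild-type Run replicate 27, whereas the other 7 samples of that group lay between 5.28 and 5.46. It was the 1 wild-type array on which Sfrp2 was detected. About 1 in 20 such sets is singled out by chance.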

How the results depend on the processing

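Genotype differences of the 9 detected probes, and those of Frzb and Dkk1 in Run and of Dkk3 by running in Dio2-/- mice, were recomputed under 11 other settings and without each of the 20 arrays in turn, where a fit was possible. Of 366 values, 364 kept their direction and their side of the adjusted threshold. The sign of Sfrp5 turned to -0.060 with chip as a fixed block, a fit that rests on chip 6 alone for genotype. This turn rested on Dio2-/- Run replicate 24, without which the chip 6 difference of Sfrp5 was 0.11. With array weights, Dkk3 (ILMN_2746556) passed for running in Dio2-/- mice (-0.79, adjusted P = 0.0282), so that 1 member was called there against 0 in the main fit. Those weights did not fully converge and called 5881 of all probes in that contrast, against 31 in the main fit. The other 177 of 178 counts of called members stayed at 0.

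Without each array in turn, the genotype difference lay between 0.38 and 0.55 for Frzb and between -0.71 and -0.47 for Dkk1, and the running difference of Dkk3 in Dio2-/- mice between -1.26 and -0.64. Over the other settings, Frzb ranged from 0.10 to 1.10 and Dkk1 from -1.21 to -0.13, the small ends in the authors' normalized table and the large ends with chip as a fixed block. Counts over all tested probes moved more: without both arrays that stood apart they were 5, against 1, for genotype, 48, against 10, for genotype in NoRun, 905, against 45, for running in wild-type mice, and 214, against 31, for running in Dio2-/- mice. With chip as a random block the last 3 were 0, 7 and 2. Leaving out single arrays moved running in Dio2-/- mice to between 1 (Dio2-/- NoRun replicate 16) and 2547 (Dio2-/- Run replicate 24), running in wild-type mice to between 3 (wild-type NoRun replicate 12) and 233 (Dio2-/- NoRun replicate 16), and genotype in NoRun to between 0 and 25. Chip as a fixed block gave no value for genotype in NoRun, running in Dio2-/- mice or the interaction. A filter of detection P below 0.01 on at least 6 arrays removed Sfrp2 and the dimmer Sfrp1 probe. No paired analysis was possible because no replicate number is shared between groups. Signal near background limits Sfrp2 and Dkk1 in particular.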
